A study of Mus musculus with 8 samples.

Results

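AG120 plus azacitidine, given together and here called the combination, was compared with Vehicle in mouse I1DN leukaemic progenitors by the share of reads that called a CpG cytosine methylated. The members of the comparison were autosomal stretches of 1000 bp, counted from position 1 of each chromosome and here called tiles, that held at least 3 covered CpG cytosines and at least 20 reads in each of the 2 combination and 2 Vehicle libraries. Of 320276 autosomal tiles with any covered cytosine in the series, 45926 were members. Single cytosines with at least 10 reads in each of these 4 libraries were also described, 120846 of 3883480, and so were promoter windows from 1000 bp before to 500 bp after a gene start, 10987 of 25748 genes. A level is the percentage of methylated among all calls, and a difference in points is the combination mean minus the Vehicle mean.

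Methylation of CpG cytosines in promoters usually goes with a silent gene, and most CpG-rich promoters are unmethylated in every tissue. AG120 (ivosidenib) inhibits mutant IDH1, an enzyme that makes 2-hydroxyglutarate, and this metabolite inhibits the TET dioxygenases that oxidise methylcytosine as a first step of its removal. Azacitidine is built into nucleic acid and traps DNA methyltransferases, so methylation can be lost as cells copy their DNA.

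Mice carrying transplanted I1DN leukaemic cells received Vehicle, AG120, AZA (azacitidine) or the combination for 5 days, and cKit+/Cd11b- progenitors were taken for RRBS (reduced representation bisulfite sequencing), a method limited to restriction fragments rich in CpG. Every group of 2 libraries carried the same leukaemia, so no group of normal cells enters the comparison. The labels do not say whether the 2 libraries of a group came from separate mice, and p-values then measure only the spread between these samples, which may be technical. No promoter window of Itgam, which encodes Cd11b, or of Idh1 passed the filter, and that of Kit, which gives the sort its other marker, had levels of 19.4% and 0.137% in Vehicle and 3.33% and 16.8% in the combination. Total CpG calls were 119441709 and 130796962 in the Vehicle libraries and 97741404 and 90373925 in the combination libraries, spread over 1994393 and 1912990 against 1396625 and 1386488 positions. Limits given for levels of 0% allow for counting error alone, because reads copied by PCR are not independent molecules.

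The 6 promoter sequences below show what a difference in this comparison is made of, and were chosen after their values were seen. All but Tet2 come from protein-coding entries whose groups did not overlap and whose means were at least 25 points apart. Of those entries they are the ones with the largest gains (Acp5 and Fgfr4) and losses (Bend5 and Chrnb4), and the one with the most cytosines read in all 4 libraries (Fgf12). Tet2 is shown as an unmethylated promoter. Each is the RefSeq entry of build GRCm38.p6, whose coordinates are those of mm10, from 250 bases before to 50 after the gene start, written 5′ to 3′ on the strand of the gene. Capitals mark the CpG dinucleotides with a cytosine that had at least 5 reads in each of the 4 libraries, here called shared positions. Of 2375 entries with at least 4 such positions, 127 were higher and 265 lower in both combination libraries, 14 and 11 of them by at least 25 points, and 23.7% had no methylated read in any of the 4 libraries.
Acp5: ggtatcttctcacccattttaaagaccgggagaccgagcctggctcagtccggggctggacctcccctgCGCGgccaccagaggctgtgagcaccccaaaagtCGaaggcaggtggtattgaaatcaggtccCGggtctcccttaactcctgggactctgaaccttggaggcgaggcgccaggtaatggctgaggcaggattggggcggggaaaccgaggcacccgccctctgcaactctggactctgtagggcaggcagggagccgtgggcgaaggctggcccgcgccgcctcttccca
Fgfr4: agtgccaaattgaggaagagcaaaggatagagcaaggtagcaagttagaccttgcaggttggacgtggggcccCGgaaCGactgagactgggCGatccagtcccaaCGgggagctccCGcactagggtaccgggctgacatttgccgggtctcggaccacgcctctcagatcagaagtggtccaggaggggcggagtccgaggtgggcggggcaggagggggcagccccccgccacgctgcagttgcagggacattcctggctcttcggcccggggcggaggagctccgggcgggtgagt
Bend5: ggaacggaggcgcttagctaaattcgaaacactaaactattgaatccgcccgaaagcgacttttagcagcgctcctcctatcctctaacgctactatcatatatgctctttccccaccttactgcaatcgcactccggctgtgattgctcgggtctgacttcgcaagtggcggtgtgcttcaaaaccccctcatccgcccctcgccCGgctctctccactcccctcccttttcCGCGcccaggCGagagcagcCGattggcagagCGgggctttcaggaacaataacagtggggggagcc
Chrnb4: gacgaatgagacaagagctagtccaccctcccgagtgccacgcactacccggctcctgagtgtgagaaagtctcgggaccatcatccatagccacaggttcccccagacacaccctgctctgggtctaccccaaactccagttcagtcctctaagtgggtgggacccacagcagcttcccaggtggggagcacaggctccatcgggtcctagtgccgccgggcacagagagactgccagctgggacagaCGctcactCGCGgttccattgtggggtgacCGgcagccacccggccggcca
Fgf12: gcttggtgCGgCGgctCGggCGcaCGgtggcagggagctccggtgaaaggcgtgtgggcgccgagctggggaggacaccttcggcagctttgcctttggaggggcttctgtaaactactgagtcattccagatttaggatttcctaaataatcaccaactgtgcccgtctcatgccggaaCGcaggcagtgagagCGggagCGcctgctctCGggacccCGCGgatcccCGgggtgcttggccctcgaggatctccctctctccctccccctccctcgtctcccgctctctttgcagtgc
Tet2: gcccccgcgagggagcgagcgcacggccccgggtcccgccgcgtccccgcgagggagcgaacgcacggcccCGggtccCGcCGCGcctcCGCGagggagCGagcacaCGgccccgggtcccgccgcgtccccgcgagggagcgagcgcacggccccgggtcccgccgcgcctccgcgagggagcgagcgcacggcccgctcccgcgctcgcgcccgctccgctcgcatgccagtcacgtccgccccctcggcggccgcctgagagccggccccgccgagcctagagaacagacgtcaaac

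Acp5 encodes the tartrate-resistant acid phosphatase of osteoclasts and macrophages, and its entry lies at chr9:22131816-22132115 on the minus strand. Its 4 shared positions averaged 0% and 25% in Vehicle and 100% and 67.5% in the combination. Fgfr4, a receptor tyrosine kinase for fibroblast growth factors (chr13:55152568-55152867, plus strand), had 0% in both Vehicle libraries and 80% and 26.4% in the combination at 5 positions. In both promoters the 2 groups did not overlap, which the choice of entries required.

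The entry of Bend5, which encodes a BEN-domain protein (chr4:111414756-111415055, plus strand), went the other way, from 100% and 69.9% to 0% and 16.7% at 6 positions. Chrnb4, a subunit of the nicotinic acetylcholine receptor (chr9:55048495-55048794, minus strand), had 36.9% and 92.7% in Vehicle and 0% and 25% in the combination at 4 positions. Fgf12, a fibroblast growth factor homologue that stays inside the cell (chr16:28446026-28446325, minus strand), had 37.5% and 56.8% against 4.48% and 24.1% at 12 positions. The 8 capital CpGs of Tet2 (chr3:133544341-133544640, minus strand), which encodes one of the TET dioxygenases, carried no methylated read in any of the 4 libraries, on at least 144 reads each.

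Single cytosines within these promoters were mostly read as fully methylated or fully unmethylated. In combination replicate 1, 4 of the 5 Fgfr4 cytosines stood at 100% and the fifth at 0%, each on 141 reads. In combination replicate 2 the same cytosines stood at 32.1%, 67.9%, 0%, 0% and 32.1% on 221 reads each. At Acp5, combination replicate 2 had 10 reads per cytosine against 109 in replicate 1. At Bend5 the combination had 8 reads in replicate 1 and 29 to 31 in replicate 2, against 92 to 94 and 80 to 84 in Vehicle. At Chrnb4 combination replicate 1 had 8 or 9 reads per cytosine. At Fgf12 Vehicle replicate 1 had 7 reads at each cytosine from -69 to -20 bp of the gene start. Combination replicate 2 had 9 reads at each Fgf12 cytosine from -242 to -226 bp. Equal read counts along a fragment with levels near 0% or 100% show that the reads of a library fell into few patterns.

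**Figure D1:**
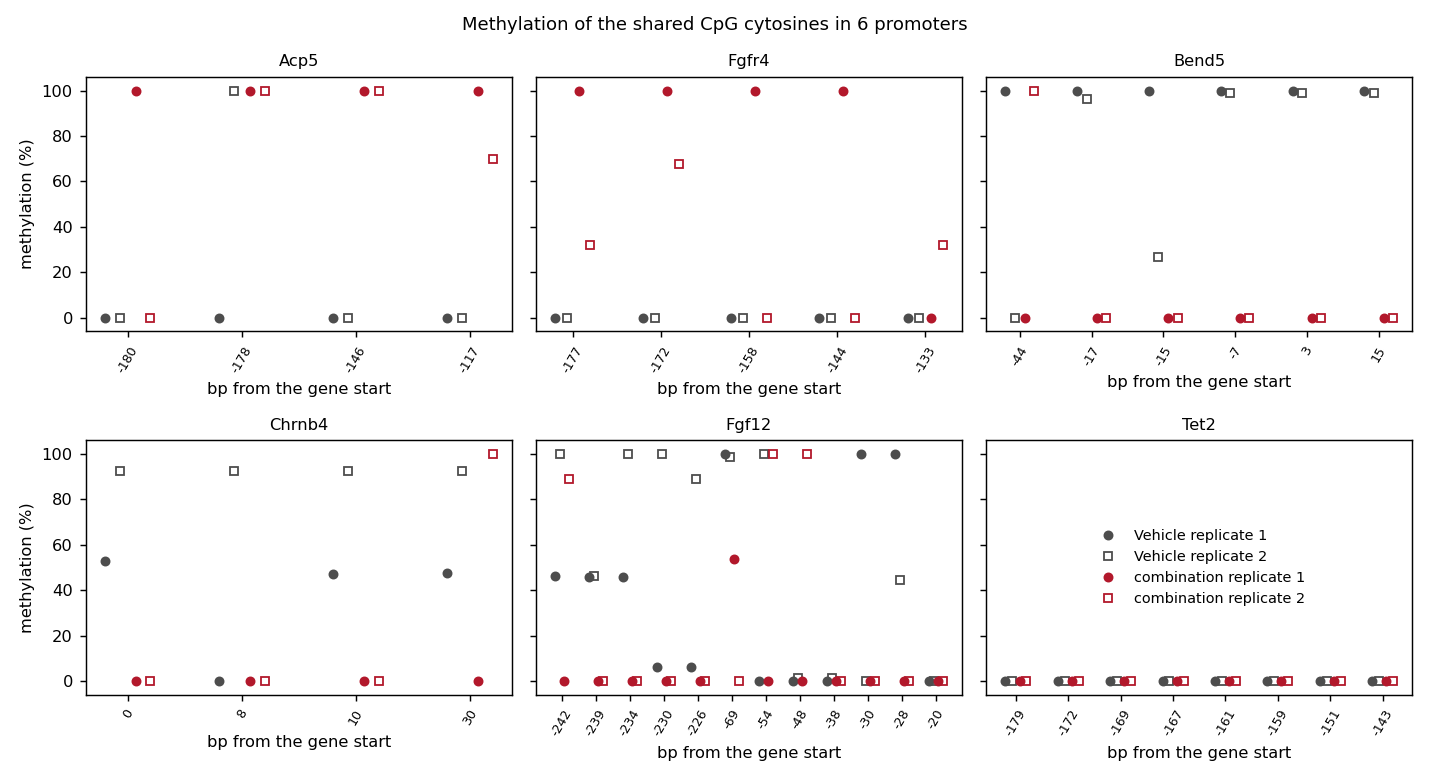
Methylation level (y axis, percent) of each shared CpG cytosine, by its distance from the gene start in bp (x axis), in the 6 promoters printed above. Grey stands for Vehicle and red for the combination, with filled circles for replicate 1 and open squares for replicate 2. Tet2 lies at 0% throughout, and most points of the other promoters lie at or near 0% or 100%.

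This patchiness held for the whole comparison. Of the 120846 cytosines, 82.1% and 81.5% in the Vehicle libraries and 87.9% and 87.5% in the combination libraries were at exactly 0% or 100%. Among the 21996 cytosines with a mean level of 20% to 80%, that share was 55.9% and 55.1% in Vehicle and 67.4% and 65.8% in the combination, at median depths of 113 and 123 against 132 and 125 reads. More cytosines were therefore read as all or none in both combination libraries. The median depths cover the 21996 cytosines alone and count reads, which need not be separate DNA molecules. The part of depth in this difference was not tested. An exact permutation test of 2 libraries against 2 cannot go below p = 0.333, the value it gave here.

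The libraries also read different cytosines of a tile. Of the positions covered in any of the 4 libraries within the tiles, 15.4% were covered in all 4, and 24.0% of tiles had no such position. Tile levels in the 2 Vehicle libraries differed by 9.73 points on average and those in the 2 combination libraries by 11.9 points. At single cytosines, 5046 (4.18%) differed by at least 90 points between the 2 Vehicle libraries and 8851 (7.32%) between the 2 combination libraries. Values at shared positions are therefore given beside many of the values over all covered positions.

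Averaged over the cytosines compared, levels in the 2 groups lay close together. Each cytosine counted once, the mean level was 36.0% and 36.8% in Vehicle and 36.3% and 36.4% in the combination (36.4% ± 0.498 and 36.4% ± 0.0374, SD, n = 2 each; exact permutation p = 1.0, two-sided). Tiles averaged 49.04% and 50.1% against 49.5% and 49.2%, and at shared positions, in 20395 tiles, 41.8% and 42.6% against 41.8% and 41.9%. The 2 groups overlapped and differed by under 1 point in all of them.

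Counted by reads, the same libraries stood apart. With each read at the 120846 cytosines counted once, 37.2% and 36.8% of calls were methylated in Vehicle and 45.6% and 45.0% in the combination, a difference of 8.29 points (exact permutation p = 0.333, two-sided, the smallest this design allows). Over all autosomal calls, the shares were 33.3% and 31.9% against 49.8% and 47.3%. The combination libraries had fewer of their reads on unmethylated tiles. Tiles under 5% in the AG120 and AZA libraries took 56.2% and 57.9% of the Vehicle reads and 43.6% and 44.8% of the combination reads, and tiles at 80% to 95% took 6.74% and 6.26% against 12.2% and 11.3%. In these classed tiles 20.2% and 19.6% of Vehicle calls and 33.2% and 31.7% of combination calls were methylated. With the reads of each class held at its mean share in Vehicle, the same tiles gave 19.6% and 20.3% against 21.3% and 21.001%.

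Promoter windows averaged 10.6% and 10.97% in Vehicle and 11.6% and 11.2% in the combination. At shared positions of 6604 windows the means were 8.30% and 8.64% against 8.64% and 8.68%. CpG-rich promoters (observed to expected CpG of at least 0.6, 8514 windows) stood at 6.004% and 6.25% against 6.91% and 6.53%, and the 2473 CpG-poor ones at 26.2% and 27.2% against 27.6% and 27.5%. Both combination libraries lay above both Vehicle libraries in each of these pairs, by under 1.0 point between the group means. At shared positions the CpG-rich windows stood at 5.48% and 5.65% against 5.79% and 5.71%, and the CpG-poor ones at 21.2% and 22.35% against 21.7% and 22.3%, so the groups of the latter overlapped.

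**Figure D2:**
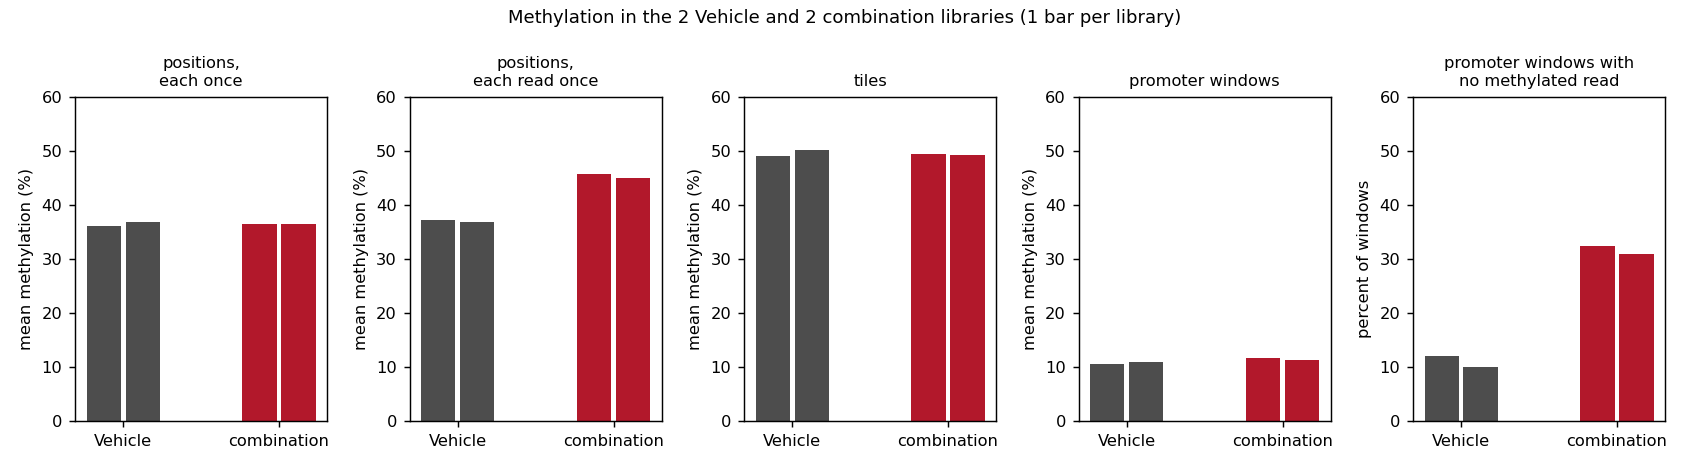
Each bar is 1 library, grey for Vehicle and red for the combination. The first 4 panels give the mean methylation (percent) of cytosines counted once each, of the same cytosines with each read counted once, of tiles and of promoter windows, and the last gives the percentage of promoter windows with no methylated read. Bars of the 2 groups are level where cytosines or tiles count equally and stand apart by reads (37.2% and 36.8% against 45.6% and 45.0%) and in the last panel (11.9% and 10.01% against 32.4% and 30.9%).

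Fully unmethylated promoters were more frequent in the combination. A promoter window without any methylated read made up 11.9% and 10.01% of windows in Vehicle and 32.4% and 30.9% in the combination (exact permutation p = 0.333, two-sided). Depth moved with this share, since the median window had 3728 and 4295 reads over 61 and 60 positions in Vehicle and 1810 and 1817 reads over 34 and 36 positions in the combination. After each window was thinned to the lowest read count of the 4 libraries, the shares were 18.6% and 17.1% against 36.5% and 34.7%. At shared positions, with reads thinned to the lowest of the 4 libraries at each position, they were 52.8% and 49.7% against 63.7% and 63.8%, a difference of 12.5 points. Equal reads need not be equal numbers of DNA molecules, and the part of that number in the difference was not tested. For tiles with no unmethylated read the 2 groups overlapped, at 14.0% and 15.3% in Vehicle and 14.8% and 15.1% in the combination.

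Tiles of low to middle methylation had higher means in the combination and highly methylated tiles had lower ones. Classes were set by the mean level of the AG120 and AZA libraries, which the difference does not use, in the 36157 tiles with at least 20 reads in each of those 4 libraries as well. The 3169 tiles at 20% to 50% averaged 32.7% and 33.1% in Vehicle and 36.1% and 35.2% in the combination, a difference of 2.82 points. The 7230 tiles at 80% to 95% averaged 88.9% and 91.0% against 88.6% and 88.6% (-1.37 points), and those at 95% to 100% differed by -1.16 points. Under 5% the difference was 0.0326 points and from 50% to 80% it was 0.00963 points.

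At shared positions the 1408 tiles of the 20% to 50% class averaged 31.0% and 31.3% against 33.1% and 33.0%, or 1.94 points. The classes at 80% to 95% and at 95% to 100% differed by -0.747 and -1.24 points there. By place, tiles within 1000 bp of a gene start differed by 0.518 points, tiles inside genes by -0.445 points and tiles between genes by -0.779 points, and at shared positions by 0.221, -0.565 and -0.892 points. These class means differed between the groups by no more than a few points, and with 2 libraries a group no exact test of them can pass 0.05.

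**Figure D3:**
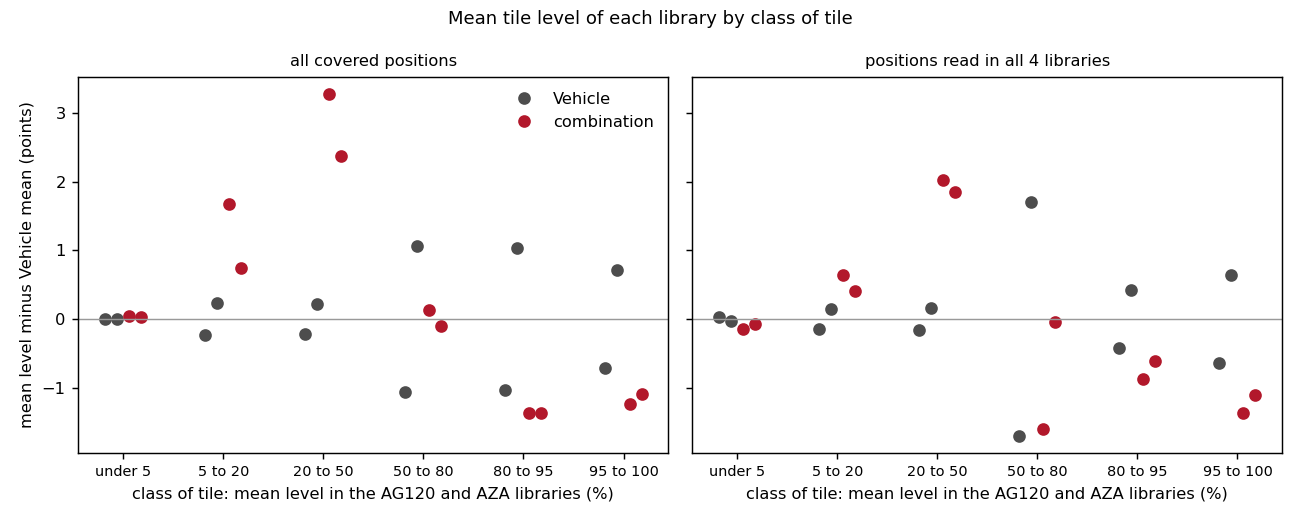
Mean level of each library minus the Vehicle mean (y axis, points) in 6 classes of tile set by the AG120 and AZA libraries (x axis, percent), for all covered positions on the left and for shared positions on the right. Grey points are Vehicle libraries and red points combination libraries. In the 20 to 50 class both red points lie above both grey points in both panels, with mean differences of 2.82 and 1.94 points, and from 80% upwards they lie below 0.

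Tile by tile, more members lay lower than higher in both combination libraries, mainly among tiles under 5%, while large differences were split evenly. Both combination libraries lay below both Vehicle libraries in 9044 tiles (19.7%) and above them in 5705 (12.4%). In the 13341 tiles with a mean level under 5% over the 4 libraries, 4016 lay lower and 643 higher. In the classes above, these 2 counts lay closer together. From 5% to 20% they were 963 and 745, from 20% to 50% 533 and 882, and from 50% to 80% 1063 and 930. From 80% to 95% they were 1734 and 1556, and from 95% to 100% 735 and 949. Tiles under 5% in the AG120 and AZA libraries had median reads of 3036 and 3558 in Vehicle and 1417 and 1443 in the combination. Over all tiles, 8.27% and 7.51% in Vehicle and 18.0% and 17.3% in the combination had no methylated read. The part of depth in the counts by direction was not tested. A gap of at least 25 points was found in 1334 higher and 1367 lower tiles, and one of at least 50 points in 205 and 182. Among promoter windows 3044 (27.7%) were lower and 1184 (10.8%) higher, but a gap of at least 25 points was found in 175 higher and 84 lower ones. At shared positions 946 windows (14.3%) were lower and 514 (7.78%) higher, with 52 and 74 past 25 points. The tiles apart by at least 25 points lay within 1000 bp of a gene start in 17.4% of the higher and 9.58% of the lower ones, against 29.3% of all tiles. Gene starts of chromosome 18 were not used here, so its tiles count as away from a start and it has no promoter windows. Where the tiles apart by at least 25 points had enough shared positions, 383 of 422 higher and 402 of 432 lower ones kept their direction there, and 207 and 223 still stood apart by 25 points. Of all tiles with enough shared positions, 13999 of 20395 kept their direction. Shared positions belong to the same libraries that set the gap, so this is not an independent repeat.

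Few of these differences exceeded the spread between libraries. By edgeR's quasi-likelihood test on methylated and unmethylated counts with Benjamini-Hochberg adjustment over all tiles, 5 of 45926 tiles (0.0109%) passed a false discovery rate of 0.05, each with a higher level in the combination, and 2336 had an unadjusted p under 0.05. Of promoter windows, 8 of 10987 (0.0728%) passed, also higher in the combination, and 572 had an unadjusted p under 0.05. No tile and no window with a lower level passed in this fit. DESeq2 passed 57 windows, 13 higher and 44 lower. At an unadjusted p under 0.05 the more frequent direction also differed between tools. Tiles numbered 1298 higher and 1038 lower by edgeR, and 979 and 1412 by limma. Windows numbered 398 higher and 174 lower by edgeR, 207 and 483 by limma, and 325 and 1403 by DESeq2. The counts rest on how the spread was estimated, since fitting the 4 libraries alone gave 0 tiles and 3 windows, and limma gave 0 of both. They also rest on single libraries: 1 tile passed without Vehicle replicate 1, 1 without Vehicle replicate 2, 3 without combination replicate 1 and 8 (2 of them lower) without combination replicate 2. Without Vehicle replicate 1, 4 windows passed (1 lower), and without Vehicle replicate 2, 13 (5 lower).

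The tile with the smallest adjusted p lay inside Filip1l, which encodes a filamin A interacting protein, and Cmss1 (chr16:57391001-57392000). It had at least 16561 reads in each of the 4 libraries. Its level was 34.2% and 31.2% in Vehicle and 69.6% and 74.7% in the combination, a log2 ratio of methylated to unmethylated counts higher by 2.35 (edgeR adjusted p = 2.73e-05). AG120 alone gave 63.2% and 56.8% and AZA alone 40.8% and 43.1%. Both combination libraries lay above every other library. At 41 shared positions the level was 31.6% and 35.1% against 73.1% and 70.4%, and this was the 1 tile of the 5 that also passed in a fit to shared positions (edgeR adjusted p = 0.0293). Along the tile, all 50-bp steps from 250 to 549 bp with at least 20 reads had higher levels in both combination libraries.

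A tile at the divergent starts of Clns1a, which encodes a subunit of the methylosome that modifies spliceosomal proteins, and the noncoding Rsf1os2 (chr7:97696001-97697000) stood at 0.198% and 0.821% in Vehicle and 55.2% and 62.8% in the combination (edgeR adjusted p = 0.000832). It had no shared position. Nearly all methylated reads of the combination came from 200 to 349 bp into the tile, where replicates 1 and 2 had 1305 and 786 reads in the first 50 bp step at 99.9% and 100%, and the Vehicle libraries 2 and 48 reads at 100% and 33.3%. From 550 bp on, levels were 0% in all 4 libraries wherever read, apart from 0.102% in 1 step of Vehicle replicate 2. The difference of the tile therefore moved with where the reads of each library fell.

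**Figure D4:**
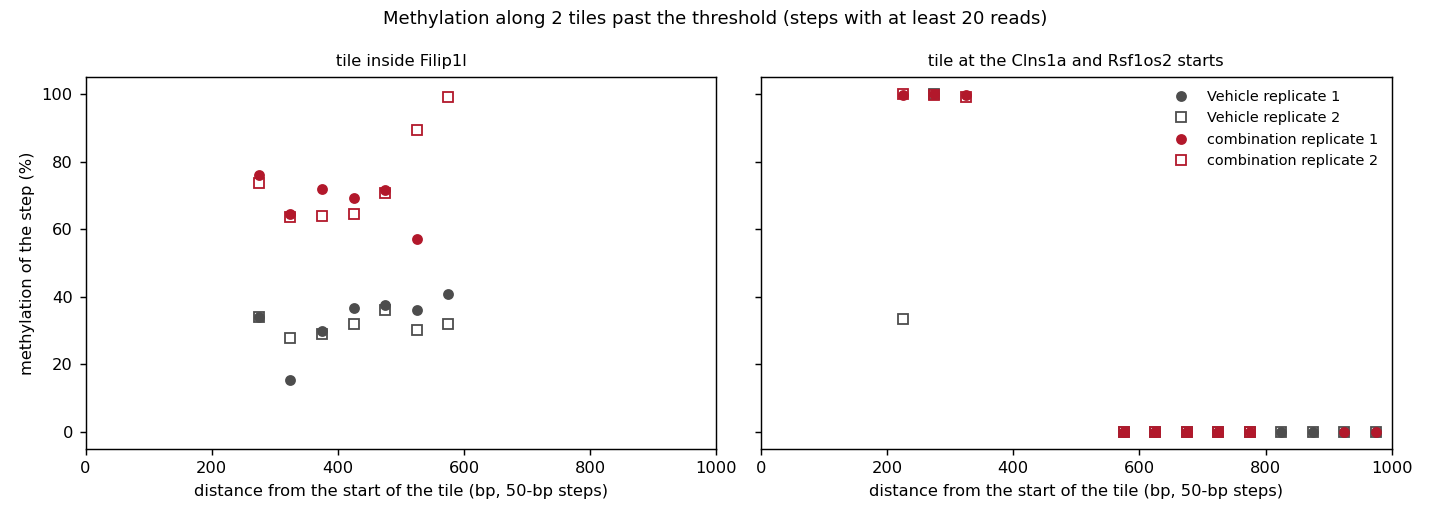
Methylation level (y axis, percent) in 50-bp steps along 2 tiles past the threshold (x axis, bp from the start of the tile), for steps with at least 20 reads. Grey is Vehicle and red the combination, with filled circles for replicate 1 and open squares for replicate 2. In the Filip1l tile the red points lie above the grey ones at each step, and in the Clns1a and Rsf1os2 tile both groups are at or near 0% from 550 bp on.

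The tile in Adgrl1, which encodes the adhesion receptor latrophilin-1 (chr8:83901001-83902000), had 1.66% and 2.52% in Vehicle and 42.5% and 56.5% in the combination (edgeR adjusted p = 0.0152). Nearly all of its methylated reads in the combination lay at least 500 bp into the tile, where neither Vehicle library had a read. Its 2 shared positions went the other way, at 47.8% and 23.1% in Vehicle and 0% in both combination libraries. The tile in Arhgap21, which encodes a GTPase-activating protein (chr2:20900001-20901000), had 31.8% and 30.9% against 46.3% and 50.2% (edgeR adjusted p = 0.0213). It had at least 30863 reads in each of the 4 libraries. At its 7 shared positions the levels were 28.6% and 29.9% against 46.3% and 50.2%, while AG120 alone gave 42.9% and 43.6% and AZA alone 38.9% and 35.5% at the same positions.

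The fifth tile belongs to the ribosomal DNA stretch of chromosome 17 that holds Rn18s-rs5, a copy of the gene for 18S ribosomal RNA, and AY036118. At chr17:39844001-39845000 the level was 31.9% and 31.2% in Vehicle and 51.3% and 44.3% in the combination (edgeR adjusted p = 0.00576), on at least 261742 reads per library. AG120 gave 47.9% and 52.3% and AZA 35.1% and 34.4%. At 145 shared positions it was 28.7% and 31.5% against 47.6% and 37.9%, so that the 2 groups stayed apart.

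The 6 tiles from chr17:39843001-39849000 were read deeply enough to compare cytosine by cytosine. At 728 positions with at least 100 reads in each of the 8 libraries, the mean level was 28.1% and 31.7% in Vehicle, 37.5% and 46.8% under AG120, 35.0% and 35.2% under AZA, and 46.7% and 41.8% in the combination. Both combination libraries lay above both Vehicle libraries at 411 of these positions and below them at 26. Over the 120846 cytosines of the whole comparison, 3.57% lay higher and 3.62% lower. That set asked for fewer reads, and in the Vehicle and combination libraries alone. In each of these libraries 81.5% to 87.9% of its cytosines were at exactly 0% or 100%. Cytosines tied between the groups count as neither higher nor lower. The part of depth and ties in the contrast with the 728 positions was not tested. Neighbouring cytosines can share reads, so the positions are not independent. By tile, 5 of the 6 were higher in both combination libraries, and the 5 other than chr17:39844001-39845000 had edgeR adjusted p-values of 0.853 to 1.0. Sequence present in many copies can collect reads from several places, and its part in these values was not tested.

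Of the 20 tiles with at least 10000 reads in each of the 4 libraries, a depth chosen after the values were seen, 13 were higher and 2 lower in both combination libraries, and in 11 of the higher ones the group means were at least 10 points apart. Over all 45926 tiles, 12.4% lay higher and 19.7% lower. The lowest of the 4 read counts had a median of 247 over all tiles. The Filip1l and Arhgap21 tiles past the threshold were among these 20, as was chr17:39844001-39845000. Whether the 20 tiles collect reads from several places was not tested. A tile in Cdk8, the kinase of the mediator complex, stood at 21.7% and 25.4% in Vehicle and 40.1% and 46.7% in the combination (edgeR adjusted p = 0.0895). A tile overlapping Zc3h7a (chr16:11144001-11145000) stood at 29.4% and 38.1% against 46.1% and 58.0%. The 2 deepest tiles lay at the ends of chr2:98662001-98667000, a range with no annotated gene, and did not move this way. At 44 cytosines of that range, each with 100 or more reads in all 8 libraries, Vehicle stood at 79.0% and 82.0% and the combination at 79.99% and 78.6%.

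**Figure D5:**
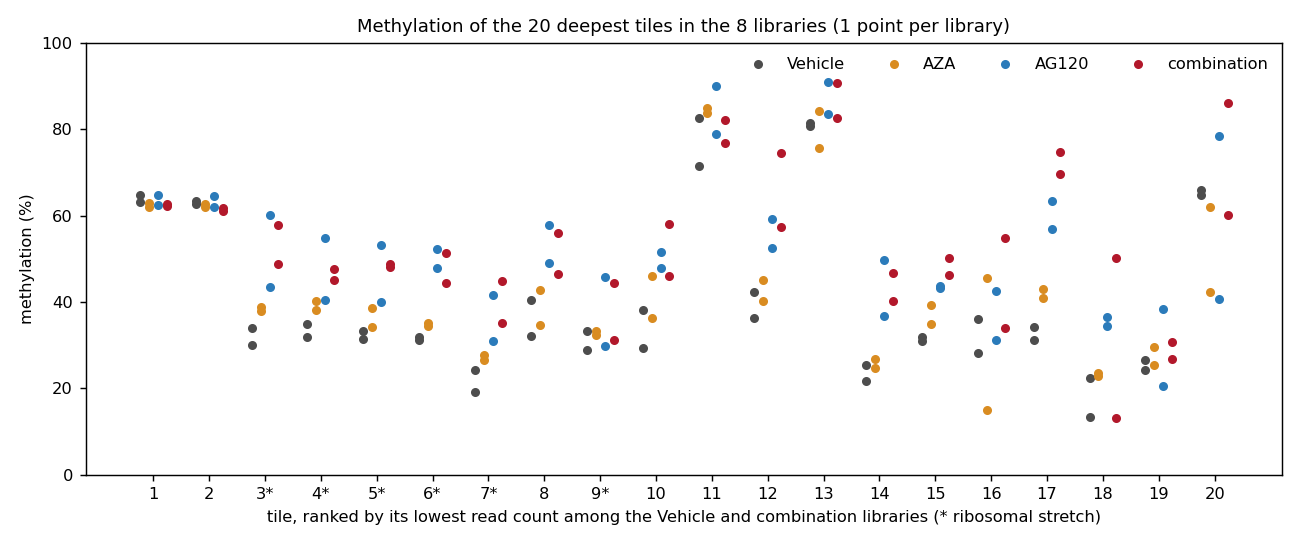
Methylation level (y axis, percent) of the 20 tiles with at least 10000 reads in each Vehicle and combination library, ranked by depth (x axis), with 1 point for each of the 8 libraries (grey Vehicle, orange AZA, blue AG120, red combination) and a star for the ribosomal stretch. In 13 of the 20 tiles both red points lie above both grey points, and in 2 they lie below.

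The 8 promoter windows past the threshold stood for 6 loci, since the Clns1a and Rsf1os2 windows and the Celsr2 and Gm52630 windows shared their reads. Lrrc4, a leucine-rich repeat protein of synapses (chr6:28831247-28832747), rose from 1.78% and 8.55% to 99.6% and 86.4% (edgeR adjusted p = 0.000402). Mrps24, a protein of the small mitochondrial ribosomal subunit (chr11:5707201-5708701), rose from 0.492% and 3.65% to 39.7% and 61.3% (edgeR adjusted p = 0.000778). Taf13, a subunit of the general transcription factor TFIID (chr3:108570699-108572199), rose from 1.30% and 2.74% to 79.7% and 27.8% (edgeR adjusted p = 0.00849). Their groups did not overlap.

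The Celsr2 and Gm52630 windows, the first of a cadherin receptor (chr3:108415079-108416579), rose from 3.71% and 8.27% to 22.04% and 56.3% (edgeR adjusted p = 0.0117). Acp5 (chr9:22131365-22132865) rose from 12.9% and 28.7% to 81.8% and 99.2% (edgeR adjusted p = 0.0119). The window of Clns1a and Rsf1os2 covers the reads of the tile described above, with an edgeR adjusted p of 1.59e-05. In Lrrc4 the single drugs gave 15.3% and 58.8% (AG120) and 2.62% and 18.4% (AZA), and in Acp5 38.0% and 63.6% (AG120) and 78.7% and 60.6% (AZA). In Mrps24 AG120 alone gave 66.7% and 41.3%, a range that overlaps the combination, and AZA alone 1.69% and 0%. The single drugs stayed under 11% in Taf13, in Celsr2 with Gm52630 and in Clns1a with Rsf1os2.

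Of the 8 windows, Acp5 and Mrps24 had enough positions read in all 4 libraries to repeat the comparison on them. Acp5 was higher in both combination libraries at 9 shared positions too, at 55.6% and 64.3% against 100% and 85.6% (edgeR adjusted p = 0.046 in the fit to shared positions), a difference of 32.8 points against 69.7 over all positions. Its window passed in 6 of 15 other settings, and in none that left out 1 of the 4 libraries. Mrps24 was not, with 80% and 100% in Vehicle and 81.7% and 90.4% in the combination at 5 shared positions. The windows of Lrrc4, Taf13, Clns1a with Rsf1os2, and Celsr2 with Gm52630 had no shared position, so their levels compare different cytosines.

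The fit to shared positions passed 4 of 6604 windows, all higher in the combination. Besides Acp5 these were Plin3, Ttc9 and Tmem200b. Plin3, a protein of lipid droplets (chr17:56290011-56291511), rose from 16.3% and 0.931% to 66.7% and 83.3% at 6 positions (edgeR adjusted p = 0.0445). Ttc9 (chr12:81630249-81631749) went from 9.86% and 3.45% to 13.8% and 54.8% at 29 positions (edgeR adjusted p = 0.046), with 1 of its 2 combination libraries far above the other. Tmem200b (chr4:131920771-131922271) went from 13.8% and 6.85% to 17.1% and 22.2% at 18 positions (edgeR adjusted p = 0.00991). None of these 3 passed over all covered positions, where their edgeR adjusted p-values were 0.275, 0.156 and 0.81.

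No loss passed the threshold, and the losses named here have the smallest p among tiles lower by at least 25 points. A tile inside Stat5a, a transcription factor downstream of cytokine receptors (chr11:100879001-100880000), stood at 97.2% and 69.9% in Vehicle and 4.90% and 1.88% in the combination (edgeR adjusted p = 0.202). At its 6 shared positions it stood at 83.3% and 68.5% against 39.4% and 1.34%. A tile in Gm16863 (chr16:21293001-21294000) had 99.9% and 97.1% against 0% and 37.3%, and at 3 shared positions 99.9% and 100% against 0% and 36.6%. A tile in Pitx1, a homeobox gene of hindlimb development (chr13:55825001-55826000), had 46.4% and 39.4% against 12.1% and 15.7%, but at 24 shared positions 32.1% and 24.2% against 29.2% and 23.9%. The groups of the Stat5a and Gm16863 tiles stayed apart at shared positions and those of the Pitx1 tile did not.

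The other named losses were in or near Gpr26, Slc41a3, Lgr6, Mybpc1 and Gm32796. Gpr26, an orphan receptor (chr7:131966001-131967000), had 98.3% and 89.1% in Vehicle and 25.7% and 24.9% in the combination. Slc41a3, a magnesium transporter (chr6:90624001-90625000), had 100% and 100% against 15.0% and 3.40%, read at 4 positions in all. Lgr6, a receptor for R-spondins (chr1:134987001-134988000), had 86.4% and 47.6% against 15.1% and 2.07%. These tiles had edgeR adjusted p-values of 0.264, 0.311 and 0.345. The tile whose nearest gene start is that of Gm32796 (chr16:29946001-29947000) had 83.4% and 47.8% against 2.75% and 18.7%, and that in Mybpc1, a myosin binding protein (chr10:88560001-88561000), 100% and 90.7% against 34.6% and 33.3%. At 3 shared positions the Mybpc1 tile stood at 100% and 94.96% against 100% and 33.3%, and the groups overlapped. The Gpr26 and Lgr6 tiles had no shared position, so their levels need not come from the same cytosines. The Slc41a3 and Gm32796 tiles had 2 shared positions each, under the 3 asked of a region.

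A tile overlapping H19, an imprinted noncoding RNA (chr7:142578001-142579000), had the opposite pattern. Its level was 13.2% and 15.8% in Vehicle and 89.5% and 80.3% in the combination, against 56.2% and 18.3% under AG120 and 7.22% and 2.15% under AZA (edgeR adjusted p = 0.0689). The 56.2% of AG120 replicate 1 rests on 16 reads, under the 20 asked of the Vehicle and combination libraries. At its 4 shared positions Vehicle stood at 4.69% and 0% and the combination at 75.0% and 100%. Both combination libraries lay above the other 6, although the tile missed the threshold.

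Promoter windows with losses also missed it. Cnpy1 (chr5:28209668-28211168) had 13.5% and 18.1% in Vehicle and 2.11% and 0.976% in the combination, the loss with the smallest p (edgeR adjusted p = 0.156). At its 8 shared positions it had 4.08% and 29.8% against 0.0373% and 12.5%, and the groups overlapped. Cldn10, a tight junction protein (chr14:118853950-118855450), had 34.1% and 22.5% against 0% of 697 reads, which allows a level of up to 0.43%, and 0.025%. Pced1b (chr15:97246107-97247607) had 15.7% and 8.79% against 0.45% and 2.33%, and Kazn (chr4:142238901-142240401), a protein of cell junctions, 45.8% and 55.0% against 41.5% and 14.4%. At their 9 shared positions each, Pced1b had 31.2% and 20.4% against 11.1% and 22.2%, which overlap, and Kazn 67.7% and 55.6% against 52.3% and 0%. Zfp759 and Gm30059 made up the 6, with edgeR adjusted p-values of 0.214 and 0.493. The windows of Cldn10, Zfp759 and Gm30059 had no shared position, so their levels need not come from the same cytosines.

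No gene list held a window past the threshold, so each list is described by how many members lay apart in both libraries and by its median. Over all 10987 promoter windows 27.7% lay lower and 10.8% higher, and the median difference was -0.255 points. Lists were read against these values. Of 21 measured stem and progenitor genes, 7 lay lower and 2 higher, with a median of -0.992 points, and at shared positions 1 of 17 lay lower and 2 higher. Cd34, a surface marker of haematopoietic progenitors, had 7.30% and 1.08% in Vehicle and no methylated read in the combination. Mecom, a transcription factor of stem cells and of myeloid leukaemia, had 2.01% and 10.1% against 48.4% and 16.4%, and at 6 shared positions 1.47% and 10.1% against 49.4% and 16.7% (edgeR adjusted p = 0.642). Mllt3, a transcriptional elongation factor named after its values were seen, was the other higher member, at 0.0924% and 2.06% against 23.6% and 7.34%.

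Of 12 measured myeloid differentiation genes, 4 lay lower and 0 higher, with a median of 0.196 points. The largest loss was in Klf4, a factor of monocyte differentiation, at 4.59% and 9.25% against 0.905% and 0%. Myeloid members at shared positions numbered 5, of which 2 lay lower. Of 16 germline genes, which are held silent by methylation in somatic cells, 4 lay lower and 1 higher, with a median of -1.16 points. The list averaged 81.2% and 83.4% in Vehicle and 84.1% and 78.2% in the combination, and Sycp3, a protein of the synaptonemal complex, stood at 91.1% and 97.1% against 100% and 97.2%. Tdrkh, of the piRNA pathway, had 2.30% and 23.0% against 1.10% and 0%.

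Of 15 imprinted genes 4 lay lower and 3 higher, with a median of -1.04 points, and 0 of the 4 measured at shared positions lay apart. Igf2r, the scavenger receptor for insulin-like growth factor 2, had 51.7% and 47.1% in Vehicle and 65.3% and 93.9% in the combination (edgeR adjusted p = 0.762). Grb10, an adaptor of insulin signalling, had 44.4% and 30.4% against 20.98% and 19.8%. Their differences ran in opposite directions.

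Developmental transcription factors, which are often unmethylated but silent in blood cells, were the longest list. Of 40 measured, 13 lay lower and 12 higher, with a median of 2.70 points, and 7 had an unadjusted p under 0.05. At shared positions 6 of 23 lay lower and 6 higher, with a median of -0.0656 points. Isl1, a homeobox factor of heart and motor neurons, had 17.9% and 36.7% in Vehicle and 56.8% and 48.4% in the combination, but 98.8% and 43.9% against 83.3% and 50.5% at 6 shared positions. Pax1, a paired-box factor of the vertebral column, had 41.1% and 39.7% against 21.1% and 0%.

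Of 26 tumour suppressors 7 lay lower and 3 higher, with a median of 0.077 points. Tcf21, a factor of mesenchymal cells often methylated in tumours, had 0% in both Vehicle libraries and 13.1% and 98.9% in the combination (edgeR adjusted p = 0.665). Hic1, a transcriptional repressor, had 13.1% and 17.1% against 3.01% and 12.5%. Cdkn2b, the cell cycle inhibitor p15 whose promoter is often methylated in myeloid leukaemia, had 0.474% and 1.46% in Vehicle and 1.58% and 13.3% in the combination (edgeR adjusted p = 0.954). The higher combination library of Cdkn2b and of Tcf21 was replicate 2 in both cases.

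Of 24 genes of the methylation machinery, of azacitidine handling and of IDH metabolism, 5 lay lower and 2 higher, with a median of -0.138 points, and 2 of 13 lay lower at shared positions. Uhrf2, a relative of the maintenance factor Uhrf1, had 7.75% and 2.27% in Vehicle and 69.7% and 27.4% in the combination (edgeR adjusted p = 0.838). Rrm1, the large subunit of ribonucleotide reductase, had 0.148% and 9.03% against no methylated read. Dnmt3a, a de novo methyltransferase, had 1.48% and 1.59% against 0.0206% and 1.64%. Tet2 had 0.0168% and 0.396% against no methylated read in 3934 and 2169 reads, which allows levels of up to 0.0763% and 0.138%.

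Of 25 genes of MAPK signalling 6 lay lower and 1 higher, with a median of -0.393 points. Nras, the GTPase, had 0% and 0.176% in Vehicle and no methylated read in 5225 and 3391 reads of the combination, which allows up to 0.0574% and 0.0885%. Braf had 3.24% and 5.98% against 0.27% and 0.441%, and Dusp1, a phosphatase of MAP kinases, 0.0224% and 0.482% against 3.64% and 0.564%. Of 26 cell cycle genes 6 lay lower and 2 higher, with a median of -0.267 points. Ccne1 (cyclin E1) had 3.56% and 2.39% against no methylated read, and Mcm7, of the replicative helicase, 0.49% and 1.04% against 4.78% and 6.12%.

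Of 14 interferon response genes 5 lay lower and 2 higher, with a median of -0.92 points. Adar, an RNA editing enzyme, had 0.373% and 7.85% in Vehicle and 19.96% and 9.57% in the combination, and at 14 shared positions 0% and 8.60% against 13.7% and 14.3% (edgeR adjusted p = 0.647). Ifngr2, a chain of the interferon gamma receptor, had 3.77% and 4.96% against no methylated read. Of 23 genes of mitochondria and oxidative metabolism 3 lay lower and 0 higher (median -0.284 points), with the largest loss in Twnk, the mitochondrial helicase, at 2.76% and 1.245% against 0.036% and 0.0248%. Of 20 housekeeping genes 3 lay lower and 3 higher (median 0.645 points). Chmp2a, of the ESCRT complex, had 0.0946% and 21.7% against 35.6% and 44.9%, yet at its 9 shared positions no library exceeded 0.0817%. Vcp, a protein segregase, had 1.34% and 3.80% against 0% and 0.592%.

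Markers of other cell types gave few measured windows, 5 of 20 lymphoid, 1 of 18 erythroid and megakaryocytic and 3 of 18 stromal and endothelial genes. Bcl11b, a factor of T cells, had 12.9% and 17.9% in Vehicle and 25.7% and 20.1% in the combination, and Itga2b, an integrin of megakaryocytes, 0% and 1.254% against 3.71% and 2.79%. Kdr, an endothelial receptor, had 14.1% and 15.4% against 6.98% and 9.95%. Methylation at so few windows does not measure how many such cells were sorted, and the part of cell composition in the results was not tested.

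The design also asks whether the combination differed from the sum of the single drugs, through the interaction of both drugs over all 8 libraries. By edgeR's quasi-likelihood test 0 of 45926 tiles (0%) passed, with 1839 at an unadjusted p under 0.05 and a smallest adjusted p of 0.126, and no other tool was run on it. Of promoter windows 3 of 10987 (0.0273%) passed. The comparisons of each single drug with Vehicle share the Vehicle libraries with the one described here. In the tile of Clns1a and Rsf1os2 AG120 alone gave 7.94% and 4.71% and AZA alone 3.93% and 1.85%, and in that of Adgrl1 they gave 0.142% and 11.5% and 6.69% and 4.94%.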

How the data were processed

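RRBS counts of 8 libraries were analysed, 2 for each of 4 groups. In the deposited table each CpG cytosine has 2 raw counts per library, its methylated and its unmethylated calls, without normalization per the file headers. Columns left out numbered 0. The submitters' processing notes name, without roles, the mm10 build, Bismark 0.22.3, edgeR 3.32, Trim Galore 0.4.4, R 4.0.2, SAMtools 1.4.1 and bcl2fastq 2.17.1.14. Neither deduplication nor the conversion rate is given in the sources used here.

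Counts were summed over tiles and promoter windows with at least 3 positions and 20 reads in each of the 4 libraries. Gene starts came from the RefSeq promoter table of GRCm38.p6, and exon, intron and island annotation was not used here. Both counts per region entered a fit in edgeR 4.0.16 in R 4.3.3 (a term per library, a methylation term per group, all 8 libraries, robust quasi-likelihood F-test, two-sided, false discovery rate 0.05). Summary values were compared by exact permutation tests. Shared positions had at least 5 reads in each of the 4 libraries, and 3 or more were needed per region, or 4 in a printed promoter. limma 3.58.1 (log2 ratios, pseudocount 2) and DESeq2 1.42.0 were alternatives. Python 3.11.15 was used for the rest.

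The planned test did not set the negative binomial dispersion. Of 3 versions, a common dispersion, edgeR's earlier quasi-likelihood method and its current one (the last 2 with dispersion 1e-08), the current one was kept for its recovery and false calls in simulated data, with the real counts of all 3 already known. The simulation only lowered highly methylated tiles, so it could not show how gains are recovered. It also did not let libraries read different cytosines of a tile.

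The members, lists and comparisons were chosen with earlier results of these data known. Named tiles were, past the threshold with groups apart, up to 8 with the largest change each way, or, with fewer than 3 past it, the 8 with the smallest p among those apart by at least 25 points. Windows followed the same rule with 6 and 10 points. From each list came the largest loss and gain among members whose groups did not overlap, and Idh1, Dnmt3a, Tet2, Nras, Cdkn2b, Kit and Itgam were named where measured. H19, Mllt3, the printed promoters, the windows of the fit to shared positions and of the interaction, and the deep tiles fall outside this rule and were chosen after their values were seen.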

Additional observations from a re-analysis of the deposited data

Results flagged for a closer look

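In 3 promoter windows the effect of the combination differed from the sum of the single drug effects (edgeR quasi-likelihood interaction over all 8 libraries). The interaction had been planned for tiles, and its use on windows was added after the data had been seen. The window of Trp53rkb, a kinase that acts on p53, stood at 41.9% and 62.5% in Vehicle, 31.1% and 33.8% under AG120, 18.2% and 9.40% under AZA and 75.2% and 88.0% in the combination (edgeR adjusted p = 0.0225). The window of the predicted gene Gm20052 stood at 14.8% and 35.3%, 15.5% and 5.67%, 0.527% and 7.77%, and 43.6% and 35.9% in the same order (edgeR adjusted p = 0.0386). The window of the predicted gene Gm30729 stood at 14.1% and 34.1%, 7.38% and 6.83%, 15.1% and 18.6%, and 60.3% and 58.1% (edgeR adjusted p = 0.0386). Over all covered positions the combination lay above both single drugs in all 3. The combination against Vehicle alone did not pass in any (edgeR adjusted p = 0.669, 0.954 and 0.802). At shared positions Trp53rkb stood at 100% and 100% in Vehicle and 66.9% and 100% in the combination. Gm20052 stood at 5.75% and 44.7% against 25.6% and 15.7%, and Gm30729 at 7.69% and 16.7% against 30.8% and 29.8%. There Trp53rkb had 75% and 75% under AG120 and 100% and 75% under AZA, so its combination did not lie above them. Gm20052 had 15.4% and 4.53% under AG120 and 0% and 7.69% under AZA. Gm30729 had 0.699% and 7.69% under AG120 and 23.4% and 17.5% under AZA. The interaction was not tested at shared positions.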

How the results depend on the processing

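Where 5 tiles and 8 windows passed the threshold, other filters and tools passed 11 tiles with at least 50 reads, 10 among regions passing in all 8 libraries, 0 tiles and 3 windows in a fit of the 4 libraries alone, 0 of both by limma (2391 and 690 at an unadjusted p under 0.05), and 57 windows by DESeq2, 13 higher and 44 lower. Alternatives chosen after seeing the data gave 0 tiles and 0 windows with a common negative binomial dispersion, 0 and 4 with the earlier quasi-likelihood method (smallest adjusted tile p 0.0596), and 1 and 4 at shared positions. With the common dispersion, 547 tiles were higher and 1256 lower at an unadjusted edgeR p under 0.05, and 90 and 518 windows. Leaving out 1 Vehicle or combination library gave 1 to 8 tiles (1 without Vehicle replicate 1, 1 without Vehicle replicate 2, 3 without combination replicate 1) and 4 to 13 windows (4 without Vehicle replicate 1, 13 without Vehicle replicate 2). The replicate block gave 4 tiles and 6 windows, and same-numbered samples did not deviate together (correlations -0.0051 to 0.0115). No tile passed for the interaction in any of 9 other settings. The Filip1l tile passed in 9 of 13 other settings, the Clns1a and Rsf1os2 windows in 12 of 14, Lrrc4 in 11 of 14, the Arhgap21 tile in 3 of 13 and the Adgrl1 tile in 3 of 12. Mrps24 reversed at shared positions (-3.92 points, fitted log2 ratio -1.41). The mean difference at cytosines, -0.0267 points, was 8.29 with each read counted once. The difference in windows with no methylated read, 20.7 points, was 17.7 thinned, 14.3 at shared positions and 12.5 with both. Tiles apart numbered 1805 higher and 2622 lower at shared positions, and 10270 to 12126 and 14119 to 16788 without 1 library, where fewer values must be apart. At shared positions the class means moved to -0.384 (under 5%), -0.0865 (5% to 20%) and 2.62 points (20% to 50%) by the mean of the 4 libraries, to -0.109, 0.518 and 1.94 in the same classes by AG120 and AZA, to 0.374 in tiles with 60 or more positions and to 0.221 near gene starts. The cause of these changes was not tested.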
